A study of Mus musculus with 6 samples.

Results

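The S100 genes described here are 9 genes of mouse chromosome 3, namely the alarmins S100a7a, S100a8 and S100a9 and the other epidermal S100 genes S100a1, S100a4, S100a6, S100a13, S100a14 and S100a16. They were chosen by name, and each name had 1 row among the 47729 genes of the deposited count table. The alarmins were compared with the other 6 members over 6 RNA sequencing libraries. Of these, 3 libraries are labelled as epidermis of wild type C57BL/6 mice treated with AKBA gel. The other 3 are labelled as epidermis of wild type C57BL/6 mice treated with Control gel, called control gel below. AKBA commonly stands for a boswellic acid derivative from frankincense resin. The control libraries also carry the letters IMQ in their descriptions, which are not spelled out there, and neither the age of the mice nor any other treatment of the skin is recorded there. The labels do not tell whether each library is a different mouse, so p-values measure the spread between these libraries only, which may be technical.

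S100 proteins are small calcium-binding proteins that mostly work as dimers, inside the cell on partner proteins such as annexins, and in some cases outside it. S100A8 and S100A9 form the heterodimer calprotectin, which binds zinc and manganese and so withholds them from microbes, and which signals through Toll-like receptor 4 and the receptor RAGE when released. These alarmins are abundant in neutrophils, and keratinocytes make them when the epidermis is wounded or inflamed. S100a7a is the mouse relative of the human gene of psoriasin, an antimicrobial S100 protein of inflamed skin. The other members are known as proteins of resting tissue: S100A14 and S100A16 are widely found in epithelia, S100A6 (calcyclin) binds annexins, and S100A13 takes part in the export of FGF1 and interleukin-1α. S100A1 is best known from heart and skeletal muscle, and S100A4 from fibroblasts and myeloid cells, where it binds non-muscle myosin.

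All 9 genes lie in the S100 cluster at the edge of the epidermal differentiation complex (GENCODE M21 on GRCm38). S100a1 (90511034 to 90514392, minus strand) and S100a13 (90514435 to 90524581, plus strand) stand head to head with 42 bases between them, followed by S100a14 (90526856 to 90528837) and S100a16 (90537254 to 90543151). S100a4 (90603771 to 90606045) and S100a6 (90612882 to 90624181) lie farther along. After a gap of 29.8 kb come S100a7a (90654017 to 90658669), S100a8 (90668978 to 90670035) and S100a9 (90692632 to 90695721, minus strand), so the 3 alarmin genes are neighbours with none of the other S100 genes named here between them.

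The promoter windows of the alarmin genes are shown because these neighbours had the lowest fold changes of the 9, with the window of S100a6, the next S100 gene on the centromeric side, for contrast. Each window runs from 250 bases before to 50 bases after the RefSeq start on build GRCm38.p6, 5′ to 3′ on the gene's own strand. Capitals mark matches, on either strand, to 5 motifs: C/EBP, AP-1, NF-κB, STAT and the TATA box, spelled out after the windows. No match overlapped another in these 4 windows.
S100a7a, chr3:90654052-90654351, plus strand: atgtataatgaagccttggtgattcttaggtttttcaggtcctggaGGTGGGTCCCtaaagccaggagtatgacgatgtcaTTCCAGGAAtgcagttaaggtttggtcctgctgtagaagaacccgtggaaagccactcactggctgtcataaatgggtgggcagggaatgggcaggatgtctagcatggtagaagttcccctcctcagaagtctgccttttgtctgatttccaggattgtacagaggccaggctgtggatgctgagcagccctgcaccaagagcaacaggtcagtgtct
S100a8, chr3:90668821-90669120, plus strand: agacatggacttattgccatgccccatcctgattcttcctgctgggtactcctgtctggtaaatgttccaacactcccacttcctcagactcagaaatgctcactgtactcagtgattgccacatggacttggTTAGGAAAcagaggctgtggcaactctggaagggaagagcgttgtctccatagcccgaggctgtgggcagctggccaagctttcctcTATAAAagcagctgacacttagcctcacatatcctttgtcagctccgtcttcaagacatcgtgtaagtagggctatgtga
S100a9, chr3:90695672-90695971, minus strand: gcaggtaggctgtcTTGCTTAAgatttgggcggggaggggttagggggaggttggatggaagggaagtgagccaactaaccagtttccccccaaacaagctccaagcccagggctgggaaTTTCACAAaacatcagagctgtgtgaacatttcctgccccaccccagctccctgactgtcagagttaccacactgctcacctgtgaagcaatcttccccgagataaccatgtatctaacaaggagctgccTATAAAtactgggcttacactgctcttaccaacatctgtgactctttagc
S100a6, chr3:90612644-90612943, plus strand: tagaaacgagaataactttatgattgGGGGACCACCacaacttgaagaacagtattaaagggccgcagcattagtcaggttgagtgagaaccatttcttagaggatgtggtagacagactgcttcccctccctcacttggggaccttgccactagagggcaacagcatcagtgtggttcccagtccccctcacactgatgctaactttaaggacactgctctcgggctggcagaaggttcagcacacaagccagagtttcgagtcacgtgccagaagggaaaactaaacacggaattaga

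The C/EBP letters TTNNGNAA occurred in the windows of S100a8 (1 match) and S100a9 (2 matches), and in 40.7% of the 32851 promoter windows of all genes. The STAT letters, TTCNNNGAA, occurred once in the S100a7a window and in 8.30% of all windows. The TATA box letters, TATAAA, stood 30 bases upstream of the S100a8 start and at the listed S100a9 start, and occurred in 13.6% of all windows. The NF-κB letters, GGG with CC after any 5 bases, matched once each in the windows of S100a7a and S100a6 and occurred in 50.8% of all windows. The AP-1 letters TGANTCA, found in 7.81% of all windows, were in none of the 4. These matches describe the letters of the windows only. RefSeq windows were found for 8 of the 9 members, all but S100a14.

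The alarmins had lower mean levels under AKBA gel, with wide spread between libraries, while the group means of S100a1, S100a6, S100a13, S100a14 and S100a16 lay close together. CPM, a gene's count relative to the library total after TMM scaling for composition, averaged 2.66 ± 2.32 with AKBA gel and 23.5 ± 20.4 with control gel for S100a7a (SD, n = 3 each). The mean of S100a8 was 292 ± 108 against 687 ± 578 CPM, and that of S100a9 was 297 ± 168 against 998 ± 868 CPM. In the fit over all 17023 genes that passed the low-count filter, 0 of the 9 members passed an adjusted p of 0.05 by edgeR's quasi-likelihood test, as did 0% of all genes. At an unadjusted p under 0.05 stood 2 members, S100a7a and S100a9, both lower under AKBA gel. Over all genes 13.5% were at that p in either direction and 7.01% on the lower side. DESeq2 called none of the 9 members and 1.76% of the 16947 genes it gave an adjusted p. The lowest of the 9 by its Wald test was S100a7a, at an adjusted p of 0.0634.

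**Figure D1:**
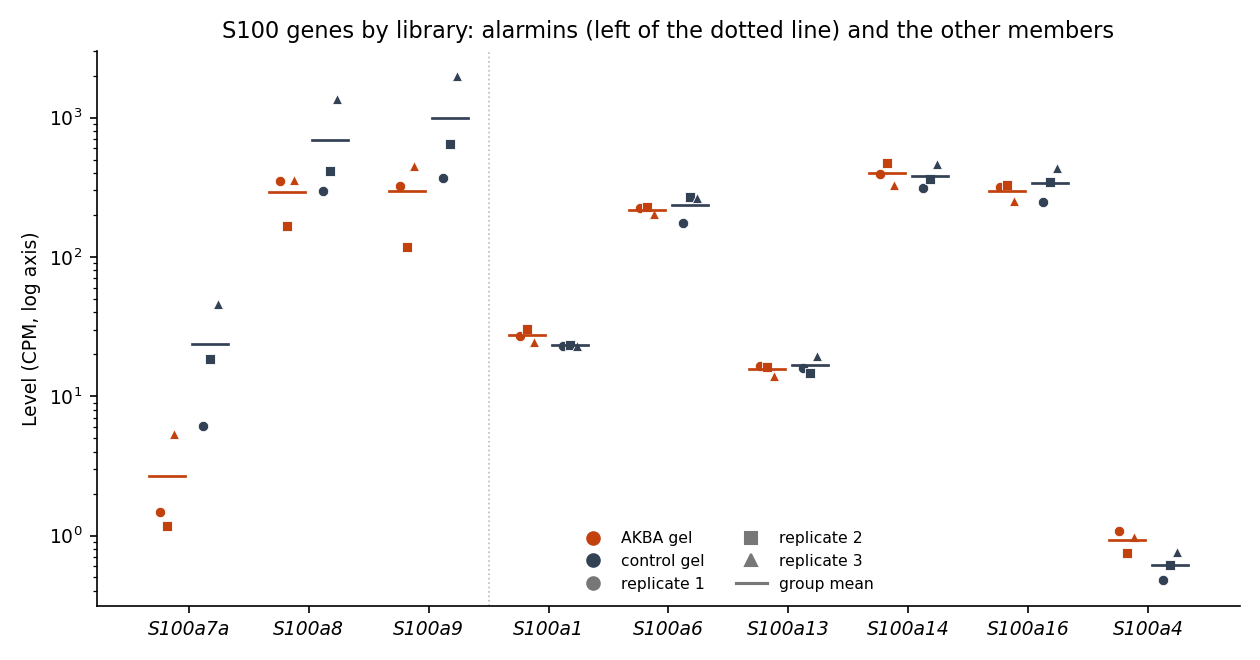
Level of each S100 member in each library (CPM, log axis), AKBA gel left of control gel for each gene; symbols give the replicate and bars the group mean of 3 libraries. The alarmins spread widely in both groups and reach 1352 CPM (S100a8) and 1989 CPM (S100a9) in control gel replicate 3, while the other members lie close together.

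S100a7a, the psoriasin relative (ENSMUSG00000063767), had the largest difference of the 9. It was at 1.47, 1.17 and 5.33 CPM in the AKBA libraries (replicates 1 to 3), against 6.09, 18.5 and 46.0 CPM in the control libraries. Every AKBA library thus lay below every control library, although AKBA replicate 3 and control replicate 1 were close. It was the only member whose groups were apart on the lower side, as were those of 9.10% of all genes tested. The log2 fold change of S100a7a was -3.12 ± 0.82 (SE; edgeR adjusted p = 0.331). A log2 fold change at or below this one was found for 16 genes, 0.0940% of those tested. The gene is scarce in the AKBA libraries, its raw counts being 30, 22 and 125 there, against 128, 423 and 960 under control gel. Without AKBA replicate 3 its log2 fold change was -4.13 (edgeR adjusted p = 0.181), and with any other single library left out it lay between -3.57 and -2.19.

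S100a8 (ENSMUSG00000056054), the smaller calprotectin subunit, was at 352, 168 and 356 CPM in the AKBA libraries, against 298, 411 and 1352 CPM in the control libraries. The groups overlapped: control replicate 1 was lower than AKBA replicates 1 and 3, and control replicate 3 was 3.81 times the mean of the other control libraries. Its log2 fold change was -1.23 ± 0.58 (edgeR adjusted p = 0.404), and 0.940% of the genes tested had a value as low or lower. Without control replicate 3 the value was -0.28 (adjusted p = 0.802), and with AKBA replicate 2 left out as well it was -0.0020 ± 0.20, with both remaining AKBA libraries between the remaining control libraries.

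S100a9 (ENSMUSG00000056071), the larger calprotectin subunit, was at 323, 118 and 451 CPM in the AKBA libraries, against 366, 641 and 1989 CPM in the control libraries. The overlap came from AKBA replicate 3, which lay above control replicate 1. The log2 fold change of S100a9 was -1.75 ± 0.69 (edgeR adjusted p = 0.351). Without control replicate 3 it was -0.76 (adjusted p = 0.681), and -0.38 with AKBA replicate 2 dropped too. As with S100a7a and S100a8, AKBA replicate 2 was the lowest library and control replicate 3 the highest. The authors' deposited table, made by a comparison whose method its headers do not state, called S100a7a (log2 fold change -2.96, adjusted p = 6.03e-04) and S100a9 (-1.64, adjusted p = 0.048). The same deposited table did not call S100a8 (-1.15, adjusted p = 0.163), and it called 0.572% of all its genes.

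The proportions among the alarmins also varied. The ratio of S100a9 to S100a8, per length from the deposited FPKM values, was 1.22, 0.939 and 1.68 in the AKBA libraries, against 1.63, 2.07 and 1.96 in the control libraries. AKBA replicate 3 fell within the control range, so the groups overlapped in this ratio. S100a8 had 239, 143 and 66.9 counts for each count of S100a7a in the AKBA libraries, against 48.9, 22.3 and 29.4 in the control libraries. S100a7a thus made up a smaller part of the alarmin counts in each AKBA library than in any control library.

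The other 6 members had log2 fold changes between -0.19 and 0.60, with a median of -0.01 beside 0.00 over all genes tested and -1.75 for the 3 alarmins. Of the 6, 5 were under 0.25 in size, as were 61.0% of all genes tested. Their adjusted p by edgeR ran from 0.422 to 0.917, which does not show that their levels were equal, and the SE of 0.12 to 0.31 gives the precision.

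**Figure D2:**
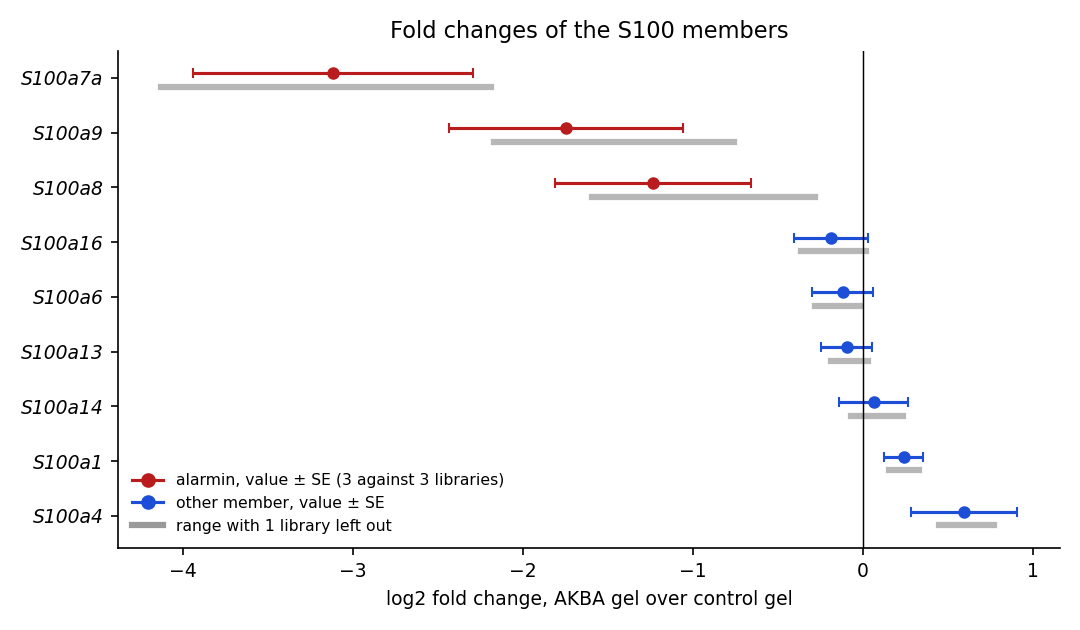
Log2 fold change of each S100 member, AKBA gel over control gel, with its SE (points and bars, 3 against 3 libraries) and, in grey, its range when 1 library is left out. The alarmins lie at -3.12, -1.75 and -1.23 and the other 6 members between -0.19 and 0.60; the grey range of S100a8 reaches -0.28.

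Among the epithelial members, S100a14 (ENSMUSG00000042306) was at 396, 469.5 and 327 CPM in the AKBA libraries, against 310.1, 365 and 465 CPM in the control libraries. Its groups covered nearly the same range, and its log2 fold change was 0.06 ± 0.20 (edgeR adjusted p = 0.917). S100a16 (ENSMUSG00000074457) was at 317, 329.7 and 252 CPM in the AKBA libraries, against 248, 344 and 432 CPM in the control libraries. All 3 AKBA libraries of S100a16 lay within the control range, and the log2 fold change was -0.19 ± 0.22 (edgeR adjusted p = 0.737). S100a6 (ENSMUSG00000001025), the annexin-binding calcyclin, was at 224, 228 and 203 CPM in the AKBA libraries, against 176, 271 and 263 CPM in the control libraries. Its AKBA libraries too lay inside the control range, with a log2 fold change of -0.12 ± 0.18 (edgeR adjusted p = 0.811).

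S100a13 (ENSMUSG00000042312), of the FGF1 and interleukin-1α export pathway, was at 16.6, 16.3 and 13.97 CPM in the AKBA libraries, against 15.9, 14.6 and 19.5 CPM in the control libraries. The groups of S100a13 overlapped, and its log2 fold change was -0.09 ± 0.15 (edgeR adjusted p = 0.821). S100a1 (ENSMUSG00000044080), its head-to-head neighbour, was at 27.3, 30.5 and 24.3 CPM in the AKBA libraries, against 23.1, 23.4 and 23.0 CPM in the control libraries. Each AKBA library lay above each control library, as in 9.28% of all genes tested on the higher side, and S100a1 was the only member with this pattern. Its log2 fold change was 0.24 ± 0.12 (edgeR adjusted p = 0.422). Skeletal muscle, where S100a1 is known to be made, did leave RNA in these libraries. The summed level of 8 muscle markers was 6119 to 7134 CPM with AKBA gel and 4499.8 to 8774 CPM with control gel, and its part in the S100a1 levels was not tested.

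S100a4 (ENSMUSG00000001020), the fibroblast and myeloid member, had only 22, 14 and 23 counts in the AKBA libraries, against 10, 14 and 16 in the control libraries. This is 1.08, 0.744 and 0.980 CPM against 0.476, 0.611 and 0.767 CPM, and the groups overlapped. The log2 fold change was 0.60 ± 0.31 (edgeR adjusted p = 0.452). In the annotation S100a4 shares 2115 bases with Gm42674, a protein-coding gene model on the same strand that was listed with 0 counts in all 6 libraries. The sources used here do not tell how reads that fit both models were counted, so the level of S100a4 is uncertain. Fibroblast markers were abundant in the same libraries, with 8 markers summing to 19551 to 25924 CPM with AKBA gel and 18926 to 35478 CPM with control gel.

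Per length the order of the members was the same in both groups. By mean deposited FPKM in the AKBA libraries it ran from S100a9 (583 ± 350) and S100a8 (427 ± 166) through S100a14 (232 ± 33.7), S100a16 (186 ± 18.2) and S100a6 (161 ± 3.35) to S100a1 (39.7 ± 3.20), S100a13 (22.0 ± 0.984), S100a7a (2.15 ± 1.98) and S100a4 (1.62 ± 0.312). In the control libraries the means were 1825 ± 1471 FPKM for S100a9 and 945 ± 733 for S100a8, then 216 ± 32.0, 207 ± 45.3 and 171 ± 36.8 for S100a14, S100a16 and S100a6. S100a1 was at 33.0 ± 2.31, S100a13 at 22.9 ± 1.97, S100a7a at 17.6 ± 14.2 and S100a4 at 1.04 ± 0.189 FPKM in the control libraries. The FPKM ranges of S100a9 and S100a8 overlapped within each group. Those of S100a14 and S100a16, and of S100a16 and S100a6, overlapped in the control libraries but not in the AKBA libraries. S100a8 overlapped with S100a14 and S100a7a with S100a4 in the AKBA libraries only, and S100a13 with S100a7a in the control libraries only. The remaining neighbours in this order did not overlap in either group. Among all genes S100a9 ranked 68, 227 and 36 by FPKM in the AKBA libraries, against 53, 19 and 9 in the control libraries. S100a8 ranked 93, 216 and 69, against 90, 62 and 23. AKBA replicate 2, the library with the least alarmin RNA, had the ranks farthest from the top.

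Set against the other S100 genes of the same library, which removes the scaling between libraries, the alarmins stood lower with AKBA gel. The mean log2 CPM of the 3 alarmins minus that of the other 6 was 0.18, -0.76 and 1.16 in the AKBA libraries, against 1.22, 1.92 and 3.25 in the control libraries. The groups did not overlap, but AKBA replicate 3 and control replicate 1 were nearly equal. The alarmin mean was higher in AKBA replicate 3 (6.58 against 6.46), and so was the mean of the other 6 (5.42 against 5.24). Their order thus depended on the other 6 members as well as on S100a7a. Among the other 6 was the scarce S100a4, with 23 counts in AKBA replicate 3 against 10 in control replicate 1. In AKBA replicate 3 against control replicate 1, S100a7a was lower (5.33 against 6.09 CPM). S100a8 (356 against 298 CPM) and S100a9 (451 against 366 CPM) were higher there. The mean gives S100a7a the same weight as the more abundant S100a8 and S100a9, and S100a4 the same weight as the more abundant members beside it. The group means were 0.19 ± 0.96 and 2.13 ± 1.03 (SD, n = 3 each), a difference of -1.94 on the log2 scale, for which no test is given because the genes were chosen with earlier results known. Without AKBA replicate 2 and control replicate 3 the difference was -0.90. The alarmins supplied the difference: their mean log2 CPM was 5.75 ± 0.85 with AKBA gel and 7.61 ± 1.27 with control gel, while that of the other 6 was 5.56 ± 0.12 and 5.48 ± 0.24.

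**Figure D3:**
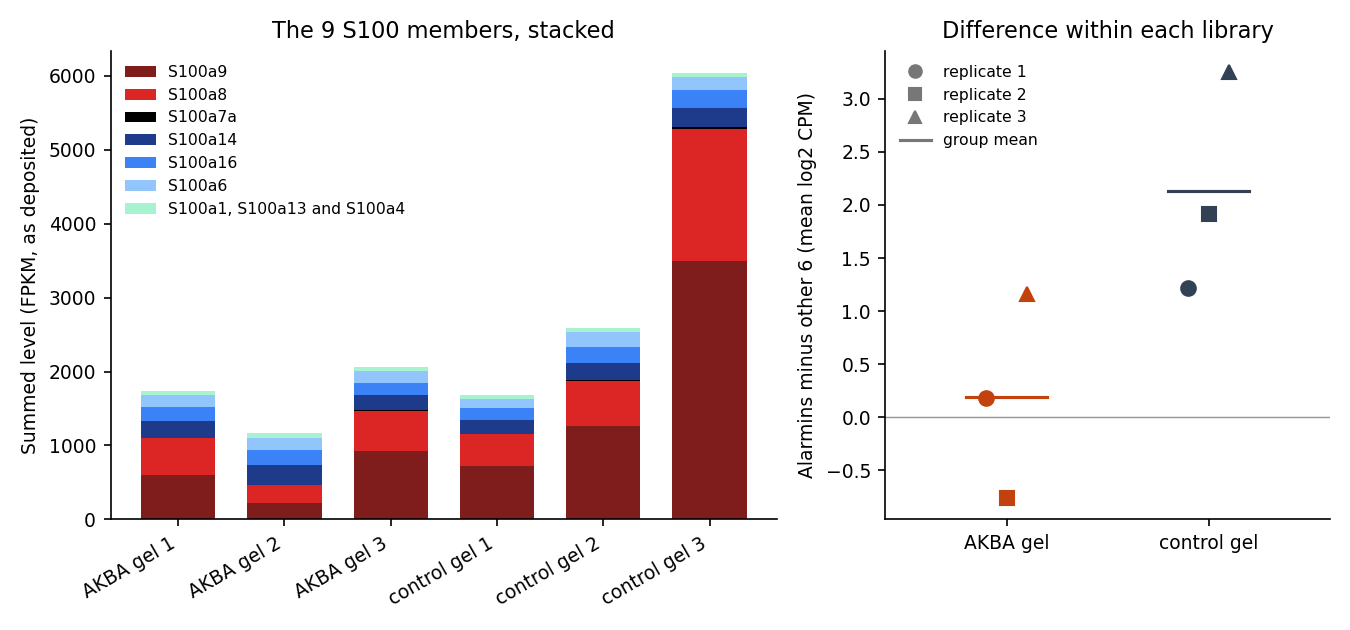
Left, deposited FPKM of the 9 S100 members stacked for each library. Right, mean log2 CPM of the 3 alarmins minus that of the other 6 in each library, with the group means of 3 libraries as bars. The summed alarmin FPKM runs from 463 (AKBA gel replicate 2) to 5313 (control gel replicate 3), while the other 6 members sum to 529 to 725 in every library.

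In summed FPKM the alarmins made up 42.9%, 22.6% and 52.9% of all S100 transcripts in the AKBA libraries, against 47.5%, 54.1% and 74.9% in the control libraries. Here the groups overlapped. The other 6 members together stayed between 587 and 702 FPKM in the AKBA libraries and between 529 and 725 FPKM in the control libraries. Within a group too the alarmins varied more: the highest library was 2.13 to 4.55 times the lowest for the 3 alarmins and 1.13 to 1.45 times for the other 6 with AKBA gel. With control gel these ratios were 4.53 to 7.55 for the alarmins and 1.02 to 1.74 for the other 6. Control replicate 3 held 3.74 to 3.95 times the mean of the other control libraries for each alarmin, and 0.990 to 1.46 times for each other member.

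**Figure D4:**
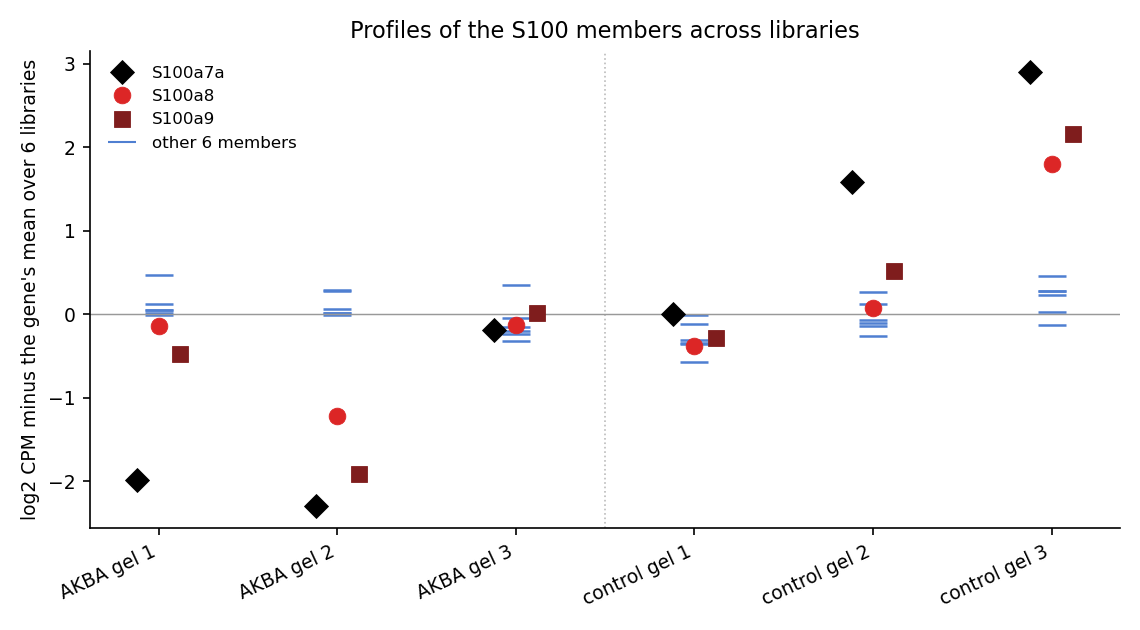
Level of each S100 member in each library as log2 CPM minus the gene's own mean over the 6 libraries, AKBA gel left of the dotted line. AKBA gel replicate 2 is the lowest and control gel replicate 3 the highest library for all 3 alarmins, and the other 6 members stay within 0.57 of 0.

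The genes with the most similar profiles were sought over the 6 libraries among 12260 other genes that averaged at least 5 CPM. Likeness was the root mean square difference of log2 CPM after each gene was centred on its own mean, so a smaller value is closer. For S100a8 the closest were the stefin A genes Stfa1 (0.23) and Stfa2 (0.26), which code for cysteine protease inhibitors, and the membrane serine protease gene Tmprss11g (0.24). Stefin A genes are near-identical copies that can share reads. For S100a9 they were the kallikrein Klk12 (0.33), the small proline-rich gene Sprr2d (0.37) and S100a8 itself (0.40). For S100a7a the distances were larger, with the immediate early gene Arc (0.53), the protease inhibitor Slpi (0.55) and the small proline-rich gene Sprr2i (0.58) closest. S100a9 was 20th in the order for S100a7a (0.84) and S100a8 was 64th (1.17). In the other direction S100a7a was 11511th in the order for S100a8, farther than any other member ranked, and 181st in the order for S100a9. The other S100 members lay between 1.72 and 1.96 from S100a7a, between 0.76 and 1.01 from S100a8 and between 1.10 and 1.34 from S100a9, S100a4 being too scarce for this ranking.

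Further S100 genes outside the 9 had small fold changes or too few counts. Of 8 further S100 genes 4 passed the filter, and none passed the threshold over all genes. S100a11, which binds annexin A1, was at 384, 385 and 307 CPM in the AKBA libraries, against 332, 379 and 512 CPM in the control libraries (log2 fold change -0.19 ± 0.19, edgeR adjusted p = 0.704). S100a10, the partner of annexin A2, was at 108, 167 and 92.2 CPM, against 99.1, 159.6 and 175 CPM (-0.24 ± 0.28, edgeR adjusted p = 0.74). The groups of both overlapped. S100b, of glial cells and melanocytes, was at 2.89, 2.55 and 3.58 CPM, against 2.81, 2.14 and 2.25 CPM (0.33 ± 0.24, edgeR adjusted p = 0.572). S100a2, S100a5, S100g and S100z had 0 to 3 counts per library. The fused S100 genes, which carry an S100 domain in front of long repeats, had 6 members tested and a median of -0.28, with 0 past the threshold. The highest CPM, a scale not corrected for gene length, belonged to Rptn (repetin, 2962 ± 982 against 4302 ± 1014 CPM) and Hrnr (hornerin, 1486 ± 599.5 against 968 ± 189 CPM), on opposite sides of 0. Flg2 (filaggrin 2), named after its values were seen, was the one at an unadjusted p under 0.05, with a log2 fold change of 1.92 ± 0.49 and every AKBA library above every control library. Over all genes tested 13.5% were at that p in either direction, and 9.28% had groups apart on the higher side. Filaggrin is spread over several rows of the table and is not reported here.

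Genes that receive, bind or induce S100 proteins were examined with lists of related genes. Of 7 receptors and receptor partners 0 passed the threshold, and the median was -0.14. At an unadjusted p under 0.05 were 3 of them, named after their values were seen and all lower with AKBA gel, beside 7.01% of all genes tested. These were Tlr4 (13.2 ± 0.458 against 17.4 ± 1.14 CPM), its co-receptor Cd14 (13.9 ± 0.517 against 18.8 ± 1.67 CPM) and the adaptor Myd88 (39.4 ± 3.48 against 51.2 ± 6.01 CPM). Their groups did not overlap, as in 9.10% of all genes tested on the lower side, and their log2 fold changes of -0.40 ± 0.12, -0.44 ± 0.12 and -0.38 ± 0.13 were smaller than those of the alarmins. The receptors with the highest CPM, Bsg (basigin, 293 ± 11.3 against 322 ± 56.8 CPM) and Cd36 (172 ± 51.4 against 158 ± 25.8 CPM), differed by less than their spread. Of 9 partner proteins of intracellular S100 proteins 0 passed, with a median of -0.17. The highest CPM belonged to Ahnak (1944 ± 149.9 against 1848 ± 189 CPM) and Anxa2 (570.5 ± 68.0 against 786 ± 260.0 CPM).

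Of 16 cytokines and receptors known to induce alarmins in keratinocytes, 11 passed the filter and 0 passed the threshold (median -0.33, beside 0.00 over all genes tested). The highest CPM belonged to Il1f9, which codes for IL-36γ (167 ± 32.7 against 174 ± 43.0 CPM), and the receptor Il17rc (132 ± 20.6 against 139 ± 26.1 CPM). At an unadjusted p under 0.05 were Il1b, Il17ra and Osmr, named after their values were seen and lower with AKBA gel, as were 7.01% of all genes tested. Il1b, the interleukin-1β gene, was at 1.77, 1.43 and 2.26 CPM in the AKBA libraries, against 2.52, 14.1 and 4.17 CPM in the control libraries. Osmr, the oncostatin M receptor, was at 57.3, 42.8 and 50.1 CPM in the AKBA libraries, against 65.2, 88.8 and 111 CPM in the control libraries. Neither gene overlapped between groups, as in 9.10% of all genes tested on the lower side. Control replicate 2 was the highest library for Il1b and control replicate 3 for Osmr. Il17a and Il22 were at 0 to 13 counts per library and below the filter. Of 12 transcription factors and regulators linked to alarmin genes 0 passed, with a median of -0.36. Cebpa (449.6 ± 59.4 against 386 ± 66.1 CPM) and Stat3 (218 ± 26.9 against 278 ± 35.0 CPM) had the highest CPM. At an unadjusted p under 0.05, and lower with AKBA gel, were 5 of them, again named after their values were seen and beside 7.01% of all genes tested. They were the AP-1 genes Fos (-1.79 ± 0.34) and Junb (-0.91 ± 0.29), the IκB family genes Bcl3 (-1.08 ± 0.25) and Nfkbiz (-0.44 ± 0.18), and the myeloid factor Spi1 (-0.37 ± 0.11; log2 fold changes).

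Markers of the cells that can hold alarmin RNA were measured beside these results. In bulk tissue, fewer cells of a type and less RNA per cell cannot be told apart. Of 12 neutrophil markers 5 passed the filter and 0 passed the threshold (median -0.37, beside 0.00 over all genes tested). The list summed to 28.4 to 44.9 CPM with AKBA gel and 55.1 to 72.7 CPM with control gel. AKBA replicate 2 was the lowest and control replicate 3 the highest library in this sum too. The defining marker Ly6g had 0 counts in all 6 libraries, and Ngp, Elane and Mpo had 0 to 5. The list members with the highest CPM were Csf3r (15.5 ± 5.40 against 23.7 ± 1.18 CPM) and Cxcr2 (15.0 ± 4.45 against 19.4 ± 4.31 CPM). At an unadjusted p under 0.05 were 2 of the 5 tested, both lower with AKBA gel, beside 7.01% of all genes tested. They were Mmp9 (log2 fold change -2.03 ± 0.51), named after its values were seen, and Csf3r (-0.61 ± 0.24). Macrophage and monocyte markers (12 tested, 0 passed, median -0.35) summed to 1691 to 1834 CPM with AKBA gel and 1886 to 2594 CPM with control gel. At that unadjusted p 5 of them were lower and 0 higher. Endothelial markers (6 tested, 0 passed, median -0.41) summed to 195 to 353 and 332 to 440.5 CPM, with 2 lower and 0 higher at that p. The macrophage and endothelial sums, and that of the S100 receptors, also had AKBA replicate 2 as lowest and control replicate 3 as highest library. The part of these cells in the alarmin levels was not tested.

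Keratinocyte markers were present in every library. Basal markers (6 tested, 0 passed, median -0.35) summed to 10854 to 15248 CPM with AKBA gel and 14170.1 to 32900 CPM with control gel. The sum was mostly Krt14 and Krt5, and AKBA replicate 2 was the lowest and control replicate 3 the highest library in it. At an unadjusted p under 0.05 were 3 basal markers on the lower side and 1 on the higher side, named after their values were seen. Over all genes tested 13.5% were at that p in either direction. The lower ones were Krt14 (-1.22 ± 0.45), Itga6 (-0.54 ± 0.21) and Itgb4 (-0.46 ± 0.18; log2 fold changes). Krt15, another basal keratin, had a log2 fold change of 1.27 ± 0.38 and was highest in AKBA replicate 2 and lowest in control replicate 3. Suprabasal markers (6 tested, 0 passed, median 0.40) summed to 34332 to 63174 CPM with AKBA gel and 25459 to 38571 CPM with control gel. At that unadjusted p 2 of them were higher and 0 lower. The part of these cell types in the alarmin levels was not tested. The libraries held 19066045 to 21992741 counts with AKBA gel and 20568296 to 22760432 with control gel, so depth differed far less between libraries than alarmin levels did.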

How the data were processed

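RNA labelled as epidermal was sequenced in 3 AKBA gel and 3 control gel libraries. Markers of fibroblasts, skeletal muscle and endothelium were also present in every library, so the tissue was not epidermis alone. The authors deposited gene counts and FPKM values for each library, and their own table of log2 fold changes and p-values, per the file headers. The submitters' processing notes name CASAVA 1.8, RSEM, edgeR and build GRCm38, without saying which step each served. The deposited counts are whole numbers, and the deposited FPKM values equal the counts per total count and gene length.

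Counts were fitted with edgeR 4.0.16 (R 4.3.3; TMM scaling, filterByExpr, quasi-likelihood test, Benjamini-Hochberg adjustment over 17023 genes, threshold 0.05), with all 6 libraries and no covariate. DESeq2 1.42.0, other scalings and filters, a replicate block and left-out libraries were alternatives. Log2 CPM used a prior count of 2. The order of the members by level was taken from FPKM, while list members were picked by CPM, which is not corrected for gene length. No library duplicated another (a chi-square of their counts was at least 30.35 times its degrees of freedom within each group).

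The members and lists were chosen with earlier results of these data known. Named were all 9 members, the other S100 genes with counts, up to 4 members of each related list past the threshold or else the 2 of highest mean CPM, defining markers at 0, and 3 genes of similar profile for each alarmin. S100a7l2 and S100p are not analysed here.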

Additional observations from a re-analysis of the deposited data

How the results depend on the processing

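Under all 12 alternatives 0 of the 9 S100 members passed the threshold. Without AKBA gel replicate 2 and control gel replicate 3 the log2 fold change of S100a8 was -0.0020, that of S100a7a -1.84 and that of S100a9 -0.38. With single libraries left out the values lay between -4.13 and -2.19 for S100a7a, -1.59 and -0.28 for S100a8 and -2.17 and -0.76 for S100a9. Values near 0 changed sign: S100a13 was at 0.034 without control gel replicate 3 and at 0.0033 without AKBA gel replicate 2 and control gel replicate 3, S100a14 at -0.071 without AKBA gel replicate 2 and -0.053 without control gel replicate 1, and S100a16 at 0.017 without control gel replicate 3. The cause was not tested. Over the single left-out libraries S100a13 lay between -0.19 and 0.034, S100a14 between -0.071 and 0.24 and S100a16 between -0.36 and 0.017. S100a4 did not pass the filter of 5 CPM in 3 libraries. The within-library difference of -1.94 was -0.90 without AKBA gel replicate 2 and control gel replicate 3, and -2.42 to -1.38 with 1 library left out. Over all genes DESeq2 called 93 higher and 205 lower, against 0 by edgeR, and leaving out 1 library gave 0 to 1 higher and 0 to 13 lower, the most without control gel replicate 1. Where 1 library is left out, a group of 2 carries the comparison.

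The labels do not say whether a replicate number marks a shared animal or batch. Same-numbered libraries had correlations of 0.07, 0.02 and -0.33 in their deviations from the group means. Correlations from 3 libraries per group cannot decide whether the numbers pair the libraries. With the replicate block 0 genes were called, and the log2 fold changes were -3.05 ± 0.37 (SE) for S100a7a, -1.01 ± 0.44 for S100a8 and -1.61 ± 0.50 for S100a9. Unadjusted p by edgeR's quasi-likelihood test was 2.7e-04 for S100a7a with the block and 0.00595 without it. For S100a9 these p-values were 0.0198 and 0.0366, and for S100a8 0.0674 and 0.0665. The adjusted p of S100a7a with the block was 0.347. Low counts limit S100a4 and, in the AKBA libraries, S100a7a.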

Other observations

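S100a3, an S100 gene of the hair cuticle, varied more between libraries than any of the 9 members. It had 9, 141 and 365 counts in the AKBA libraries, against 35, 504 and 30 in the control libraries, and the groups overlapped (log2 fold change -0.10 ± 1.23, edgeR adjusted p = 0.98). The summed level of 7 hair follicle markers was 11.8, 702 and 1548 CPM in the AKBA libraries, against 194, 2083 and 60.3 CPM in the control libraries. The order of the 6 libraries was the same for S100a3 and for this sum, and it was not that of any alarmin. Of the hair follicle markers 0 passed the threshold (median log2 fold change 0.02). Langerhans and dendritic cell markers (6 tested, 0 passed, median 0.13) and melanocyte and Schwann cell markers (7 tested, 0 passed, median 0.06) had overlapping sums in the AKBA and control libraries.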
